A study of Panax notoginseng with 12 samples.

Results

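The *Panax notoginseng* genome used for this series carries gene models, and read assembly against it added loci that no model covers. Among 146330 loci in the expression table, 7354 had no gene model, 4700 of those had no match in either the protein or the nucleotide search, and 3527 of these spanned 300 nt or more. The 1350 loci described here are those of the 3527 with a mean of at least 5 FPKM (fragments mapped, scaled for transcript length and library size) in 1 or more of the 4 treatment groups, and the other 2177 stayed under it in each group. They were chosen by their measured level, the FPKM of the same libraries, so that passing the minimum is not a result, and the selected loci made up 5.98% of the 22592 loci that met the same 5 FPKM minimum and 18.4% of all loci without a gene model. As no selected locus has a gene name or a database description, each is called by its assembly identifier.

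*P. notoginseng* is a medicinal herb grown for its root, and the study asked how nitrate changes the response of roots to ammonium. Roots were sampled from hydroponic culture in 4 groups of 3 libraries each. 15AN roots received 15 mM ammonium together with 15 mM nitrate, 15N roots 15 mM nitrate alone, 15A roots 15 mM ammonium alone, and CK (control) roots no added nitrogen. The methods describe older, pretreated seedlings harvested on the third day, and the paper's results mention pooled RNA without saying how it was pooled. The sample labels instead give 3-day seedlings and no treatment, and the groups were read from the sample titles. The methods give 3 replicates of each treatment, grown in pots, and do not say that the 3 libraries of a group came from separate pots, so the p-values measure only the spread between these libraries, which may be technical.

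A transcript assembled from reads outside the gene models can be a long non-coding RNA, an untranslated end or an exon missing from a nearby model, a transposon fragment, or a gene without a recognizable relative, and a search without a hit does not tell these apart. Long non-coding RNAs of plants are typically weakly transcribed, and several are known to respond to mineral nutrients. Where a library does not mark strand, an assembler can read the strand of a transcript only from splice junctions, so single-exon loci usually carry none. Removing ribosomal RNA, as was done here, leaves transcripts without a poly(A) tail in the library.

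Facts of the whole series bear on these loci in 3 ways. The deposited values hold no read counts, and the paper's text gives only an approximate number of reads per library. Over loci of low value in both, the most frequent ratio of FPKM to the first CK library was 1.19 to 1.22 in 15AN. In the libraries other than that one, 13.2 to 19.1% of such loci were at the most frequent ratio. Whether the ratio gives the relative worth of 1 read was not tested. The same measure was 1.34 to 1.38 in 15N, 1.35 to 1.48 in 15A and at most 1.03 in CK. The first 15A library stood apart, with a median of 34.7 FPKM over 34 green-tissue loci against 9.34 and 10.6 in the other 15A libraries, 6.49 to 8.89 in 15N, 9.90 to 12.8 in 15AN and 15.4 to 17.9 in CK. Of 12 loci with root-specific descriptions only 2 met the 5 FPKM minimum, and 171 of 248 green-tissue loci were at 0 in every library. The median of these 2 root loci was 1.79 FPKM in the first 15A library, against 8.82 and 8.10 in the other 15A libraries. It was 6.51 to 8.11 FPKM in 15AN, 5.996 to 6.78 in 15N and 9.89 to 10.97 in CK. A difference in root content between libraries was not tested, as 2 loci are too few. In bulk roots, a change in the share of a cell type and a change per cell cannot be told apart.

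The 1350 loci were scattered over the assembly and varied widely in length. They lay on 1204 scaffolds, of which 1083 held just 1 and none held more than 6. The locus interval had a median of 1539.5 nt and ran between 300 and 118980 nt, with 293 loci of 300 to under 500 nt, 250 of 500 to under 1000 nt, 208 of 1000 to under 2000 nt and 599 of 2000 nt or more. A strand was given for 776 loci (57.5%), with a median interval of 2146 nt, and not for 574 (42.5%), with a median of 669.5 nt. The strand-resolved loci were also the higher ones, with a median over the 12 libraries of 9.91 FPKM against 6.60 FPKM for those without a strand. Across all loci of the table, 4686 had no strand, and only 11 of those carried a gene model.

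The interval is not always the transcript's own. For 410 of the loci (30.4%) the table gave the same interval to at least 1 other locus, since overlapping transcripts were merged into one region, and the median of these intervals was 10819 nt against 814.5 nt for the 940 loci with an interval to themselves. There were 351 such shared intervals, and 248 of them contained an annotated gene together with 272 of the loci. A further 310 loci had their nearest annotated gene within 1000 nt, 324 between 1000 and 5000 nt, and 290 farther away, while 154 lay on a scaffold with no annotated gene. In a shared interval reads are divided among overlapping transcripts by an estimate, so these 410 values are less certain than the rest.

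**Figure D1:**
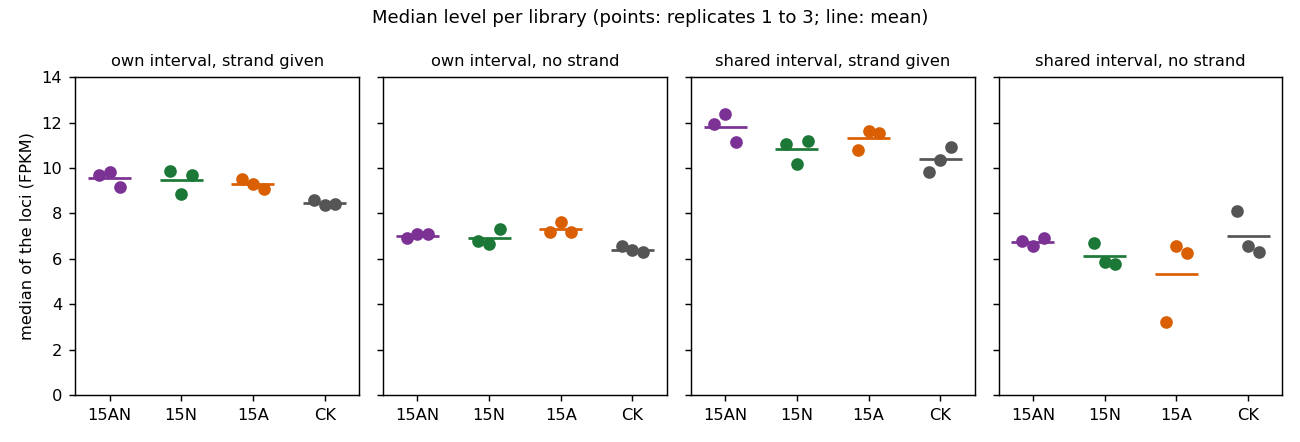
Median FPKM of the selected loci in each of the 12 libraries (vertical axis, FPKM; points are libraries and lines group means) for 4 classes of strand and interval, with 15AN, 15N, 15A and CK along the horizontal axis. Among the loci with no strand inside a shared interval the first 15A library sits at 3.23 FPKM and every other library between 5.75 and 8.11 FPKM.

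Expression of the selected loci was low for most and very high for a few. Their median over the 12 libraries was 8.35 FPKM (quartiles 4.91 and 16.6), with 793 loci under 10 FPKM, 501 between 10 and 100 FPKM and 56 at 100 FPKM or more. The lowest averaged 1.37 and the highest 7527 FPKM, and 10 averaged over 1000 FPKM. Together they held 3.66 to 5.41% of the summed FPKM in the 15AN libraries, 3.04 to 3.22% in 15N, 2.48 to 3.25% in 15A and 3.45 to 4.61% in CK. Much of that share came from the few highest ones. Left out were the 10 highest loci among those at 0 in fewer than 6 libraries, and the 9 that rested on 1 library. The rest held 1.71 to 1.78% in 15AN, 1.21 to 1.29% in 15N, 0.996 to 1.21% in 15A and 1.59 to 1.67% in CK. Other loci at 0 in 6 or more libraries, such as XLOC_025300 described below, stayed in this rest. Signal above 0 in all 12 libraries was found for 1168 loci, 134 were at 0 in 1 to 5 libraries and 48 at 0 in 6 or more.

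Both thresholds cut through a continuum. The 19 loci of 300 to under 310 nt had a median of 7.60 FPKM (2.36 to 115) and 16 of them no strand, and the 32 otherwise alike loci of 290 to under 300 nt just outside had a median of 6.60 FPKM (1.43 to 604) and 28 without a strand. At the other threshold, the 39 loci whose highest group mean was 5.0 to 5.2 FPKM had a median of 3.64 FPKM over the 12 libraries, and the 42 at 4.8 to 5.0 FPKM one of 3.55.

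Among the highest loci was XLOC_060143, on the plus strand of scaffold1917 at 242878 to 249935. It read 6839, 6778 and 7694 FPKM in the 15AN libraries, 8710, 9018 and 9794 in 15N, 11992, 8438 and 7638 in 15A, and 3042, 2914 and 3270 in CK. All 9 libraries with added nitrogen lay above all 3 CK libraries, and the log2 fold changes were 1.21 ± 0.16 in 15AN (adjusted p = 1.5e-04), 1.58 ± 0.16 in 15N (2.0e-05) and 1.58 ± 0.16 in 15A (1.8e-05), each with its standard error and by limma on log2(FPKM + 1). Bringing all libraries to equal totals gave 0.92 in 15AN and 0.95 in 15A, and quantile scaling gave 0.86, 0.99 and 0.85 in 15AN, 15N and 15A, all under the fold threshold of 1. Its interval also held XLOC_060142, annotated by its best hit as endo-1,3-beta-glucosidase of the kind that cuts callose, whose group means lay between 14.9 and 19.7 FPKM.

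A further pair of strong loci shared 1 interval on scaffold10710, 176328 to 187795, with a gene described as a spur-type DELLA protein, a repressor class of the gibberellin pathway. XLOC_023047 read 2601, 1199 and 3686 FPKM in 15AN, 5403, 4966 and 3967 in 15N, 1210, 2102 and 1197 in 15A, and 442, 643 and 451 in CK. XLOC_023046 read 471, 379.9 and 892 FPKM in 15AN, 1292, 1147 and 1137 in 15N, 318, 869 and 473 in 15A, and 282, 191 and 177 in CK. Both were lowest in CK and highest in 15N, with no overlap between 15N and CK. The log2 fold change of 15N over CK was 3.23 ± 0.38 for XLOC_023047 (adjusted p = 6.4e-05) and 2.48 ± 0.38 for XLOC_023046 (4.0e-04). The DELLA gene, XLOC_023048 on the same strand, changed alike, with group means of 66.7 FPKM in 15AN, 104.5 in 15N, 53.5 in 15A and 21.8 in CK. Its log2 fold change of 15N over CK was 2.21 (adjusted p = 2.8e-04). XLOC_023059, another annotated gene of the interval, had 3.24 (5.2e-07). Whether the pair changed apart from these genes was not tested.

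XLOC_040658, alone in an interval of 7396 nt on scaffold1453, read 6958, 10591 and 5824 FPKM in 15AN, 5220, 3236 and 4272 in 15N, 11219, 4784 and 7009 in 15A, and 2424, 1426 and 349.6 in CK. Every library with added nitrogen exceeded every CK library, and the log2 fold change was 2.82 ± 0.61 in 15AN (adjusted p = 3.8e-03) and 2.76 ± 0.61 in 15A (3.7e-03). The 15N value, 1.97 ± 0.61 (adjusted p = 0.022), lost its call without the first or without the third 15N library, at 1.80 and 1.95, and with equal totals, at 1.43. XLOC_118135, on scaffold4920, stayed level by comparison, with 4366, 5244 and 5972 FPKM in 15AN, 4530, 4517 and 6829 in 15N, 6316, 4852 and 4493 in 15A, and 5767, 8488 and 5529 in CK, where the groups overlapped and no comparison passed the test.

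A high level did not mean a steady one. XLOC_094831, an interval of 11285 nt on scaffold3011, read 2386, 15076 and 10.9 FPKM in 15AN, 7639, 2833 and 4860 in 15N, 14435, 5394 and 9140 in 15A, and 8101, 7243 and 13205 in CK. XLOC_113201, of 525 nt on scaffold4019, read 6382, 7514 and 5695 FPKM in 15AN, 6199, 6714 and 7722 in 15N, 3572, 0.785 and 2583 in 15A, and 1683, 19845 and 34.4 in CK. Replicates of 1 group thus ran between 10.9 and 15076 FPKM in XLOC_094831 and between 0.785 and 3572 FPKM in XLOC_113201, and no comparison of either passed the test. Over all 1350 loci, 58 had replicates more than 10-fold apart in at least 1 group, after 1 FPKM was added to each value.

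At the extreme, 9 loci rested on 1 library. XLOC_099067, 484 nt on scaffold31909, was listed at 31106 FPKM in the first 15AN library and at 0 in the other 11. XLOC_020316, on scaffold10106, was at 13962 FPKM in the first CK library only, XLOC_056672, on scaffold18278, at 7009 FPKM in the third 15A library only, and XLOC_012004, on C4943667, at 2153 FPKM in the second CK library only. The lowest of the 5 highest was XLOC_120809 on scaffold5422, at 646 FPKM in the second 15A library and 0 elsewhere. Each of these met the 5 FPKM minimum through a single library, so none of their group means describes a treatment.

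Of the 3 longest strand-resolved loci with an interval of their own, the longest was also the least steady. XLOC_068194, spanning 50165 nt on scaffold213, read 145, 0 and 111 FPKM in 15AN, 210.3, 41.0 and 21.0 in 15N, 45.2, 42.4 and 186 in 15A, and 76.7, 221 and 0 in CK. XLOC_025148, spanning 28725 nt on scaffold11159, read 7.24, 9.96 and 6.98 FPKM in 15AN, 5.75, 6.14 and 5.97 in 15N, 8.67, 10.4 and 8.60 in 15A, and 4.68, 6.56 and 4.56 in CK. XLOC_088050, spanning 18766 nt on scaffold2755, read 5.72, 6.65 and 5.80 FPKM in 15AN, 8.43, 6.77 and 8.14 in 15N, 7.54, 5.58 and 6.60 in 15A, and 6.11, 6.82 and 5.91 in CK. None of the 3 was called in any comparison, a call being a log2 fold change of more than 1 in size with an adjusted p below 0.05.

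**Figure D2:**
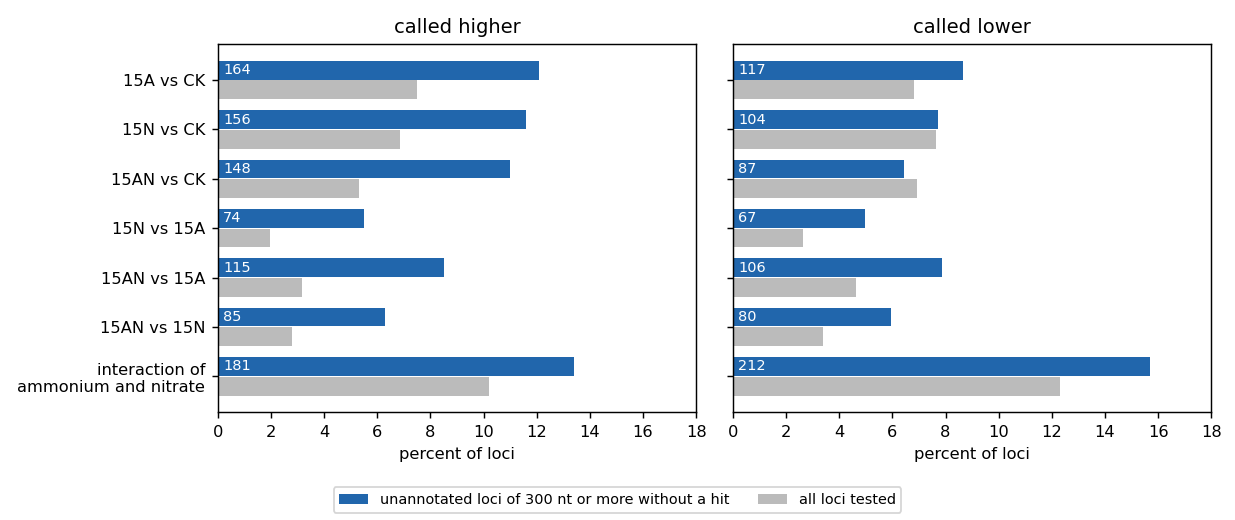
Percentage of loci called higher (left) or lower (right) in each comparison (horizontal axis, percent), for the 1350 selected loci (blue bars, with their number) above all 22592 loci tested (grey bars). In 15A over CK, 12.1% of the selected loci were called higher and 8.67% lower, against 7.49% and 6.82% of all loci.

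The ammonium treatment was compared with CK first. Called in 15A roots were 281 of the 1350 loci (20.8%, against 14.3% of all loci tested), 164 of them higher (12.1%, against 7.49%) and 117 lower (8.67%, against 6.82%). The median log2 fold change was 0.09 over the selected loci and 0.08 over all loci. For called loci with no group at 0 it was 1.39 among the 144 higher and -1.48 among the 105 lower. Because 351 of the loci met the 5 FPKM minimum only through 1 or more groups and so had room to differ, those with a mean of 5 FPKM or more over all libraries were also counted, with 110 higher (11.0%, against 7.41% of all loci above the same mean) and 56 lower (5.61%, against 4.94%). A mean of 5 FPKM or more was reached in 1 group only by 298 loci. Such a locus was selected through the group in which it is high, so its difference from that group is given below by its values, with no test. Where a locus reached that mean in more groups but not in all, the selection also favours its difference from a group under 5 FPKM. A p of such a difference is given as description only.

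Several loci stood out by non-overlapping groups. XLOC_061722, 699 nt without a strand on scaffold19585 at 253052 to 253750, read 9.94, 11.3 and 9.34 FPKM in 15AN, 26.0, 29.0 and 25.8 in 15N, 34.7, 44.9 and 45.3 in 15A, and 3.25, 3.35 and 2.72 in CK. The 4 groups were fully separated, with 15A highest and CK lowest. Its log2 fold change in 15A was 3.37 ± 0.12 (adjusted p = 2.6e-08), the value in 15N 2.77 ± 0.12 (7.5e-08) and that in 15AN 1.44 ± 0.12 (7.1e-06), the last no longer called with a pseudocount of 5 (0.90).

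XLOC_106118, 349 nt without a strand on scaffold34749 at 22749 to 23097, read 2.86, 0.659 and 3.24 FPKM in 15AN, 11.4, 11.5 and 12.2 in 15N, 27.8, 23.1 and 25.1 in 15A, and 0.269, 2.22 and 1.09 in CK. The 15A and 15N libraries lay apart from each other and above all the rest, while 15AN overlapped CK. It was 3.68 ± 0.38 higher in 15A than in CK on the log2 scale (adjusted p = 2.3e-05).

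A locus present almost only under ammonium alone was XLOC_111076, which shares an interval of 4120 nt on scaffold3669 with 1 other locus. Its 15A libraries read 60.5, 26.6 and 35.6 FPKM, and among the other 9 only 1 library each of 15AN (0.599), 15N (0.695) and CK (0.522) was above 0. XLOC_060520, 314 nt without a strand on scaffold19264, had 16.9, 16.4 and 14.6 FPKM in 15A and 1.65, 1.28 and 2.095 in 15AN, and was listed at 0 in all 15N and CK libraries. Both reached 5 FPKM in 15A only.

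In the opposite direction, XLOC_078908 was a locus of 660 nt on the plus strand of scaffold24307 at 59406 to 60065. It read 3.41, 9.57 and 8.90 FPKM in 15AN, 8.46, 6.04 and 3.95 in 15N, 1.82, 6.26 and 6.67 in 15A, and 49.8, 43.6 and 42.8 in CK. All CK libraries were far above all others, and the treatments overlapped one another. It fell by 3.10 ± 0.43 in 15A (adjusted p = 2.0e-04), by 2.74 ± 0.43 in 15N (4.7e-04) and by 2.58 ± 0.43 in 15AN (8.2e-04), all on the log2 scale. XLOC_115608, on scaffold4467, was listed at 0 in all 15A libraries and read 3.94, 5.12 and 3.39 FPKM in 15AN, 1.76, 1.996 and 2.28 in 15N and 7.91, 7.65 and 7.12 in CK, the group through which it was selected.

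Loci that lack a strand and share an interval are given separately, as 1 library weighed on them. Of the 193 such loci, 17 were called higher and 27 lower in 15A, with a median log2 fold change of -0.36, and without the first 15A library the counts were 20 and 21 and the median -0.12. That library was the lowest of all 12 for 76 of the 193 (39.4%) and for 193 of the 1350 (14.3%). Annotated loci in the same intervals, 179 tested, had a median of 24.7 FPKM in it, inside the range of 21.4 to 26.3 FPKM over the libraries. The first 15A library also had the high green-tissue values and the low values of the 2 root loci. The part of either in these counts was not tested.

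In most comparisons the split between higher and lower calls changed with scaling to equal library totals. When every library was brought to an equal FPKM total, the median of all loci moved to -0.50 in 15A over CK, -0.41 in 15N over CK, -0.20 in 15AN over CK, 0.07 in 15N over 15A, 0.29 in 15AN over 15A, 0.22 in 15AN over 15N and 0.72 in the interaction defined below. Under it 72 of the 1350 selected loci were higher and 281 lower in 15A, against 637 and 4437 of all 22592 loci tested. Median-of-ratios scaling gave 162 higher and 117 lower of the 1350 in 15A, against 1679 and 1541 of all loci. Quantile scaling gave 193 and 100, against 1517 and 1567 of all loci. As the split rests on the scaling chosen, no direction is given for the set as a whole.

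Nitrate alone was compared with CK in the same way. Called in 15N roots were 260 loci (19.3%, against 14.5% of all loci), 156 of them higher (11.6%, against 6.85%) and 104 lower (7.70%, against 7.64%). Among loci with a mean of 5 FPKM or more over all libraries the counts were 103 (10.3%, against 6.70%) and 58 (5.81%, against 5.64%). The median log2 fold change was 0.13 for the selected loci and 0.08 for all. With equal totals 78 of the 1350 loci were higher and 232 lower, against 708 and 3732 of all 22592 loci tested.

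XLOC_024079, 2338 nt on the minus strand of scaffold10906 at 5206 to 7543, was high under nitrate alone. It read 0.907, 1.62 and 0.921 FPKM in 15AN, 11.9, 11.99 and 14.9 in 15N, 1.63, 1.08 and 0.835 in 15A, and 0.538, 0.250 and 0.410 in CK. Only the 15N libraries were above 2 FPKM, and the locus was selected through them alone. Its nearest gene model, 813 nt away, is XLOC_024077, described as like flavonol synthase/flavanone 3-hydroxylase, an enzyme family of flavonoid synthesis.

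XLOC_101085, 4420 nt on the minus strand of scaffold32821, read 6.27, 9.05 and 7.39 FPKM in 15AN, 34.6, 34.2 and 37.1 in 15N, 13.6, 6.06 and 9.63 in 15A, and 3.21, 3.50 and 2.51 in CK. Nitrate alone again gave the highest group, 15AN and 15A overlapped, and CK was lowest. The log2 fold change of 15N over CK was 3.16 ± 0.23 (adjusted p = 2.3e-06). XLOC_126284, 551 nt on scaffold6348, was at 61.6, 38.2 and 47.6 FPKM in 15AN, 157, 117 and 109 in 15N, 43.0, 14.4 and 39.4 in 15A, and 4.17, 17.2 and 31.6 in CK, with 15N above all other libraries and a log2 fold change over CK of 3.13 ± 0.61 (adjusted p = 1.7e-03).

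Among the loci lower in 15N, XLOC_103216, 677 nt on scaffold33663, read 39.1, 47.2 and 49.6 FPKM in 15AN, 0, 3.68 and 3.77 in 15N, 40.6, 19.0 and 22.3 in 15A, and 40.2, 32.6 and 41.7 in CK. Nitrate alone was the only group near 0, and the fall against CK was -3.79 ± 0.53 on the log2 scale (adjusted p = 2.0e-04). XLOC_072363, in an interval of 1523 nt shared with an annotated locus on scaffold22409, was next to 0 in all 15N libraries and read 4.42, 29.6 and 12.8 FPKM in 15AN, 2.48, 23.8 and 18.6 in 15A, and 32.7, 35.6 and 11.0 in CK (adjusted p of 15N over CK = 8.4e-04).

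Ammonium together with nitrate, against CK, gave 235 called loci (17.4%, against 12.2% of all loci), 148 of them higher in 15AN (11.0%, against 5.30%) and 87 lower (6.44%, against 6.93%). Above the mean of 5 FPKM over all libraries the counts were 93 (9.31%, against 4.92%) and 44 (4.40%, against 5.13%). The median log2 fold change was 0.15 for the selected loci and 0.07 for all. Scaled to equal totals, 103 of the 1350 loci were higher and 131 lower, against 747 and 2360 of all 22592 loci tested.

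XLOC_030912, 1714 nt on the plus strand of scaffold12368 at 46276 to 47989, was at 20.4, 20.2 and 18.6 FPKM in 15AN, 0.315, 0.153 and 0.157 in 15N, 1.35, 0.952 and 0 in 15A, and 0, 0.473 and 0.464 in CK. The combined treatment was the only group above 2 FPKM. XLOC_030947, 656 nt on scaffold12373, was alike, with 56.9, 53.5 and 47.3 FPKM in 15AN, 5.84 in the second 15N library, and 0 in the other 8. XLOC_121920, in a shared interval of 968 nt on scaffold5594, read 21.3, 19.5 and 31.7 FPKM in 15AN, 0, 0.926 and 0 in 15N, 5.11, 2.87 and 1.87 in 15A, and 0 in all CK libraries. All 3 of these loci were selected through 15AN alone.

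XLOC_015732, 3677 nt on the plus strand of C4960855 at 57926 to 61602, showed the reverse. It read 0.799, 0.608 and 0.323 FPKM in 15AN, 16.7, 16.9 and 14.6 in 15N, 6.94, 4.003 and 1.82 in 15A, and 16.5, 13.7 and 12.4 in CK. 15AN lay below every other library, 15A came next, and 15N overlapped CK. The log2 fold change of 15AN over CK was -3.27 ± 0.30 (adjusted p = 1.8e-05), that of 15AN over 15N -3.45 ± 0.30 (3.3e-05) and that of 15A over CK -1.65 ± 0.30 (1.2e-03).

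XLOC_106679, 380 nt without a strand on scaffold35001, a scaffold with no annotated gene, was high in CK alone. It read 1.32, 0.545 and 0 FPKM in 15AN, 0.916, 1.19 and 1.53 in 15N, 0.656, 2.77 and 3.31 in 15A, and 14.3, 11.0 and 16.2 in CK. All CK libraries lay above all others, and the locus was selected through CK alone.

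**Figure D3:**
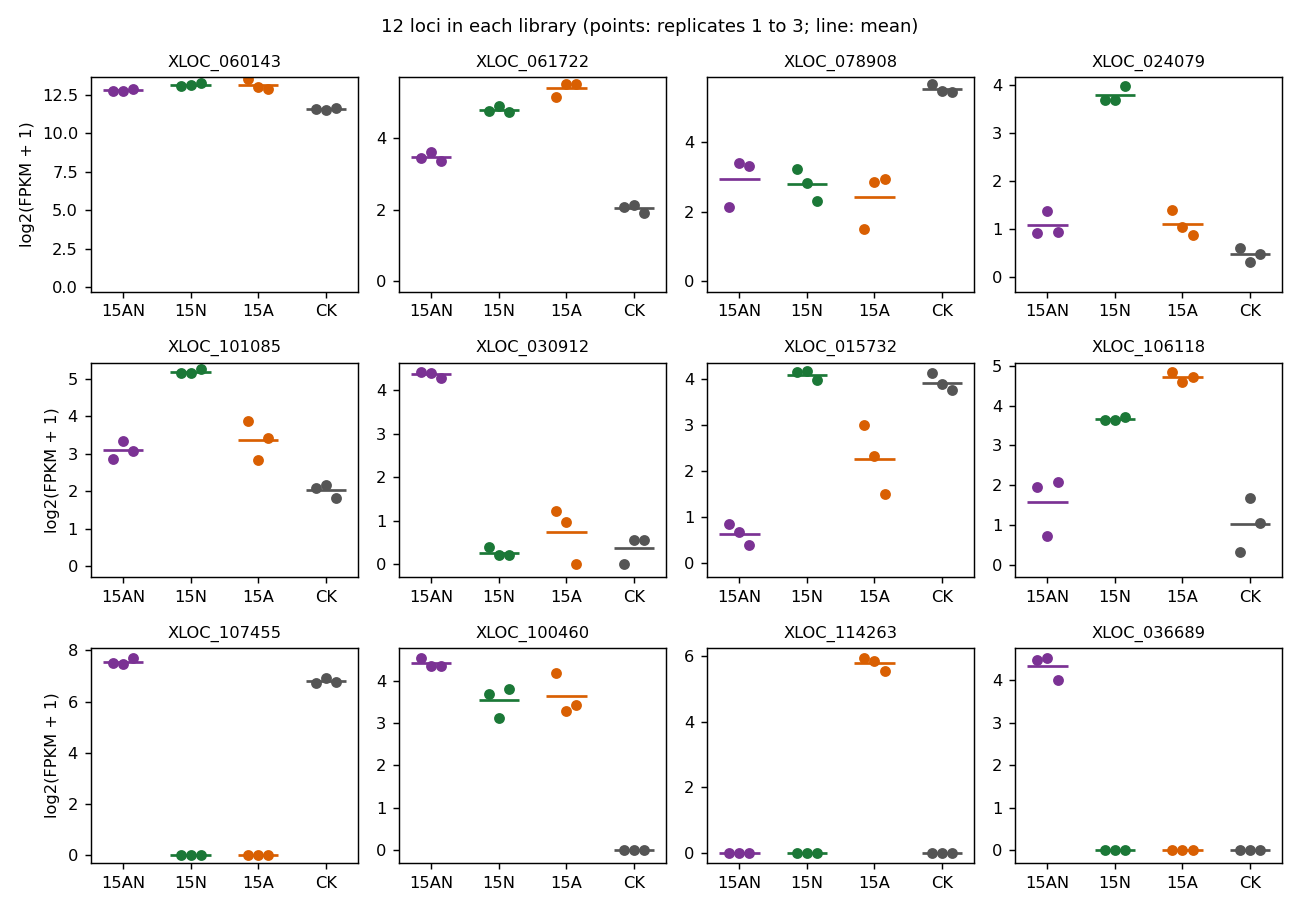
FPKM of 12 loci in each library (vertical axis, log2 of FPKM + 1), with 15AN, 15N, 15A and CK along the horizontal axis, 1 point per library and a line at the group mean. XLOC_024079 is above 2 FPKM in the 15N libraries only and XLOC_030912 in the 15AN libraries only, and XLOC_107455 lies between 105 and 207 FPKM in 15AN and CK and at 0 in 15N and 15A.

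Nitrate alone against ammonium alone changed fewer loci. Of the 1350 loci 141 were called (10.4%, against 4.59% of all loci), 74 of them higher in 15N than in 15A (5.48%, against 1.96%) and 67 lower (4.96%, against 2.63%). With the mean of 5 FPKM over all libraries required, the counts were 37 (3.70%, against 1.56%) and 31 (3.10%, against 2.11%), and the median log2 fold change was 0.02 for the selected loci and -0.02 for all. With equal totals 83 of the 1350 loci were higher and 59 lower, against 506 and 456 of all 22592 loci tested.

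Some loci separated the roots with nitrate from those without. XLOC_046782, 1860 nt on the minus strand of scaffold1595 at 37216 to 39075, read 34.1, 11.0 and 23.9 FPKM in 15AN, 12.5, 22.1 and 26.8 in 15N, 1.44, 0.121 and 0.591 in 15A, and 3.67, 0.776 and 3.47 in CK. Each of the 6 libraries with nitrate lay above each of the 6 without. The log2 fold change of 15N over 15A was 3.65 ± 0.50 (adjusted p = 7.5e-04), and that of 15AN over 15A was 3.74 ± 0.50 (3.2e-04). XLOC_074593, 459 nt on scaffold23012, was similar, with 9.25, 16.5 and 10.3 FPKM in 15AN, 11.7, 10.4 and 15.6 in 15N, 0 in the 15A libraries, and 0, 0.732 and 1.44 in CK (adjusted p of 15N over 15A = 3.6e-05). XLOC_046782 and XLOC_074593 met the 5 FPKM minimum only through 15AN and 15N, the groups where they are high. Their p-values here therefore carry no weight. XLOC_007388, 2097 nt on C4910793, was the opposite kind, with 7.49, 11.1 and 7.07 FPKM in 15AN, 0 in all 15N libraries, 33.3, 38.2 and 48.9 in 15A, and 9.96, 12.1 and 14.2 in CK (adjusted p of 15N over 15A = 1.3e-07). It met the minimum through every group but 15N, so that p carries no weight either.

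Adding nitrate to ammonium, the question of the study, gave 221 called loci (16.4%, against 7.83% of all loci), 115 of them higher in 15AN than in 15A (8.52%, against 3.18%) and 106 lower (7.85%, against 4.64%). With the mean over all libraries the counts were 61 (6.11%, against 2.49%) and 58 (5.81%, against 4.08%). Scaled to equal totals they were 192 and 71 of the 1350, against 1439 and 592 of all 22592 loci tested. The median log2 fold change was 0.06 for the selected loci and -0.02 for all. Of the called loci, 20 higher and 15 lower had a group at 0. XLOC_061722 was among those lower in 15AN, at -1.92 ± 0.12 (adjusted p = 2.4e-06), as was XLOC_106118, at -3.13 ± 0.38 (1.6e-04), and XLOC_046782 was among those higher.

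For the loci without a strand in shared intervals, this comparison again turned on the first 15A library. The 193 loci gave 18 higher and 7 lower in 15AN, with a median log2 fold change of 0.30, and without that library 13 and 11, with a median of 0.01.

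Adding ammonium to nitrate gave 165 called loci (12.2%, against 6.19% of all loci), 85 of them higher in 15AN than in 15N (6.30%, against 2.80%) and 80 lower (5.93%, against 3.39%). With the mean over all libraries the counts were 40 (4.0%, against 2.14%) and 45 (4.50%, against 2.89%). With equal totals they were 121 and 67 of the 1350, against 995 and 547 of all 22592 loci tested. The median log2 fold change was 0.01 for the selected loci and -0.00 for all. XLOC_011849, 399 nt without a strand at the start of C4942895, read 0.476, 0 and 0 FPKM in 15AN, 12.4, 8.60 and 9.11 in 15N, 2.96, 9.46 and 12.5 in 15A, and 4.03, 4.56 and 3.05 in CK. 15AN was below every other library, at -3.26 ± 0.39 against 15N on the log2 scale (adjusted p = 2.2e-04). XLOC_137636, in an interval of 21145 nt that 4 loci share on scaffold8326, read 122, 50.5 and 41.4 FPKM in 15AN, 0 in all 15N libraries, 0, 28.5 and 37.2 in 15A, and 34.4, 21.3 and 55.6 in CK (adjusted p of 15AN over 15N = 3.5e-03).

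Whether nitrate acted differently with and without ammonium was tested by the interaction, the change of 15AN over 15A minus the change of 15N over CK. It was called for 393 loci (29.1%, against 22.5% of all loci), positive for 181 (13.4%, against 10.2%) and negative for 212 (15.7%, against 12.3%). Requiring the mean over all libraries gave 101 (10.1%, against 7.94%) and 152 (15.2%, against 12.5%). With equal totals they were 445 and 107 of the 1350, against 7443 and 985 of all 22592 loci tested. The balance of signs thus turned with equal totals, among the selected loci and among all. Median-of-ratios scaling gave 182 and 211 of the selected loci, and quantile scaling 163 and 239. The median interaction was -0.07 for the selected loci and -0.08 for all.

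Of the negative kind, XLOC_106118 met the 5 FPKM minimum only through 15N and 15A, the groups the interaction subtracts, so its p carries no weight. It had an interaction of -5.76 ± 0.53 on the log2 scale (adjusted p = 1.4e-05) and XLOC_061722 one of -4.69 ± 0.16 (3.0e-08). Both were high under either nitrogen form alone and lower under both together. XLOC_042717, 936 nt on scaffold15013, carried the same shape without overlap. It was listed at 0 in all 15AN and all CK libraries and read 7.74, 6.65 and 6.83 FPKM in 15N and 2.45, 4.13 and 4.04 in 15A, and was selected through 15N alone. XLOC_028084, 1357 nt on scaffold11738, was at 0 in 15AN, 65.2, 13.6 and 79.2 FPKM in 15N, 10.01, 9.39 and 9.17 in 15A, and 6.79, 6.99 and 17.1 in CK (adjusted p of the interaction = 2.9e-04).

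Of the positive kind, XLOC_107455, 4828 nt on the minus strand of scaffold35329 at 5366 to 10193, read 183, 175 and 207 FPKM in 15AN, 0 in all 15N and all 15A libraries, and 105, 122 and 108 in CK. XLOC_076477, 1517 nt on the plus strand of scaffold23603 at 8655 to 10171, read 37.8, 57.9 and 55.1 FPKM in 15AN, 0 in all 15N and all 15A libraries, and 30.5, 48.1 and 31.1 in CK. Roots with either nitrogen form alone were thus listed at 0, and those with both or none were not. Both loci, like XLOC_025300 after them, met the 5 FPKM minimum only through 15AN and CK, the groups that the interaction adds. Values of 0 throughout a group also add no spread between libraries. For these loci the adjusted p of the interaction therefore carries no weight. It was 5.2e-13 for XLOC_107455 and 3.9e-09 for XLOC_076477. XLOC_025300, 4006 nt on scaffold1119, read 4387, 3973 and 5017 FPKM in 15AN, 0 in all 15N and 15A libraries, and 2320, 0 and 0 in CK (3.0e-03), and its 15AN over CK call (adjusted p = 0.015) was lost without the second or without the third CK library, at 6.53 in both cases against 8.39 with all libraries. XLOC_049797, which shares its interval on scaffold16652 with a pentatricopeptide repeat gene, varied from under 1 to over 100 FPKM within 15N and within 15A, and its interaction, 8.33 ± 3.04 on the log2 scale (adjusted p = 0.045), was lost in 9 of the 12 fits that left out 1 library, between 6.25 and 9.05 in those.

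Listing at 0 in a whole group was a recurrent feature. All 3 libraries were at 0 for 31 of the selected loci in 15AN, 40 in 15N, 30 in 15A and 37 in CK, which concerned 80 loci (5.93%, against 1.91% of all loci tested). None of 57 housekeeping loci tested was at 0 in any library. Since the file holds no counts, a 0 can be a failed estimate, and no fold change is given against it.

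For 13 loci (0.963%, against 0.363% of all loci) every group was either at 0 in all its libraries or at 5 FPKM or more in all of them, a pattern defined after the values were seen. XLOC_114263, 9059 nt on the minus strand of scaffold422 at 32617 to 41675, was at 60.6, 56.9 and 45.4 FPKM in 15A and at 0 in the other 9 libraries. XLOC_036689, 1027 nt on the minus strand of scaffold13653 at 123422 to 124448, was at 21.1, 22.0 and 15.1 FPKM in 15AN and at 0 elsewhere, a pattern shared by XLOC_102065 and XLOC_104955. XLOC_051577 and XLOC_059468 were seen in 15N alone, at 6.003 to 8.68 and 6.06 to 10.6 FPKM. Each of these loci was selected through the 1 group in which it is listed above 0.

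The remaining 7 loci of this kind were present in CK or in all 3 treatments. XLOC_100460, 2447 nt on the plus strand of scaffold32515 at 9243 to 11689, was present in every treated library and in no control, with 22.3, 19.4 and 19.5 FPKM in 15AN, 11.9, 7.71 and 13.03 in 15N, 17.0, 8.76 and 9.75 in 15A, and 0 in CK (adjusted p = 5.4e-07 in 15AN, 1.2e-06 in 15N and 1.0e-06 in 15A). It met the 5 FPKM minimum only through the treated groups, and CK at 0 adds no spread, so these p-values carry no weight. XLOC_085362, 322 nt on scaffold26531, was its mirror image, at 0 in all 9 treated libraries and at 9.49, 11.8 and 7.60 FPKM in CK. XLOC_076002, 2193 nt on scaffold23445, was missing from 15AN alone, with 23.7, 27.0 and 20.3 FPKM in 15N, 8.50, 22.9 and 19.5 in 15A, and 22.4, 21.5 and 15.7 in CK (adjusted p of 15AN over CK = 2.4e-06), and XLOC_028084 had the same pattern. XLOC_076002 met the minimum through every group but 15AN, so that p carries no weight either. The others, XLOC_007388, XLOC_076477 and XLOC_107455, are described above.

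The selected loci occurred in 88 runs of adjacent loci no more than 5000 nt apart, which took in 195 of them, and 12 runs held 3 or more. The loci of a run are not independent, as they share their region and often their interval. In the run on scaffold2845, 23113 to 29039, 4 loci had 1 interval in common, and for each of them all CK libraries lay above all libraries with added nitrogen. Of these, XLOC_090476 read 7.996, 8.28 and 4.88 FPKM in 15AN, 1.85, 5.42 and 3.71 in 15N, 11.95, 1.87 and 5.48 in 15A, and 20.3, 33.4 and 28.7 in CK. CK lay above all other libraries, with log2 fold changes of -1.82 ± 0.49 in 15AN (adjusted p = 0.012), -2.66 ± 0.49 in 15N (1.3e-03) and -2.17 ± 0.49 in 15A (4.3e-03). XLOC_090477 read 2.56, 1.98 and 1.95 FPKM in 15AN, 5.93, 5.78 and 2.97 in 15N, 2.39, 2.24 and 2.19 in 15A, and 10.8, 7.24 and 10.4 in CK. XLOC_090477, XLOC_090470 and XLOC_090475 reached 5 FPKM in CK only.

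Neighbours in 1 interval did not always move together. On scaffold18444, 1 to 10835, XLOC_057222 of the plus strand was listed at 0 in all 15AN libraries, at or next to 0 in the first and second 15N libraries and at 2.95 FPKM in the third, and read 22.0, 48.0 and 55.1 FPKM in 15A and 22.7, 25.6 and 16.8 in CK (adjusted p = 6.4e-05 for 15AN over CK and 1.4e-04 for 15N over CK). XLOC_057225 of the minus strand, over the same interval, read 18.9, 17.5 and 14.8 FPKM in 15AN, 23.3, 26.9 and 25.2 in 15N, 24.0, 42.3 and 38.1 in 15A, and 19.0, 19.1 and 22.7 in CK. The first was at or next to 0 in 5 of the 6 libraries with nitrate, and the second was in no comparison of 2 groups called. XLOC_057222 met the 5 FPKM minimum only through 15A and CK, where it is high, so its p-values carry no weight. The longest run, 6 loci without a strand on scaffold36057 at 23909 to 42637 beside the annotated XLOC_109947, had few calls. XLOC_109949 read 9.20, 6.93 and 7.99 FPKM in 15AN, 3.17, 3.68 and 4.80 in 15N, 1.16, 4.77 and 3.92 in 15A, and 5.62, 5.73 and 6.32 in CK, and its rise in 15AN over 15A, 1.19 ± 0.31 (adjusted p = 0.013), was lost without the first 15A library (0.76) and with a pseudocount of 5 (0.68).

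In the run on C4954829, XLOC_014436 read 8.19, 9.42 and 9.25 FPKM in 15AN, 2.11, 0 and 0 in 15N, 0, 0 and 1.04 in 15A, and 5.39, 2.38 and 6.99 in CK. All 15AN and CK libraries lay above all 15N and 15A libraries, the shape also seen in XLOC_107455, and 15AN was the only group with a mean of 5 FPKM or more. XLOC_014433, the plus-strand locus just before it, had a negative interaction of -1.37 ± 0.12 (adjusted p = 9.9e-06), no longer called with equal totals (-0.55), and read 12.5, 11.6 and 12.8 FPKM in 15AN, 18.1, 17.4 and 18.8 in 15N, 23.9, 20.7 and 19.3 in 15A, and 11.9, 11.6 and 10.5 in CK.

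To see whether the loci moved with known genes, each was set beside its nearest annotated gene. Among 201 tested pairs separated by up to 1000 nt, 35 loci and 25 genes were called in 15A over CK, 10 pairs in the same direction and 1 in opposite directions. The counts were 31, 20, 8 and 1 in 15N over CK, and 31, 18, 7 and 1 in 15AN over CK. Of all loci tested, 14.3% were called in 15A over CK, 14.5% in 15N and 12.2% in 15AN. In 15A over CK, 7 of 200 overlapping pairs were called in the same direction and 1 in opposite directions. For the 112 pairs over 1000 and up to 5000 nt apart the counts were 4 and 1, and for the 59 farther apart 2 and 0. Across these 201 pairs the log2 fold changes of locus and gene had a Pearson r of 0.48 in 15A, 0.40 in 15N and 0.38 in 15AN. For 112 pairs over 1000 and up to 5000 nt apart r was 0.15, 0.22 and 0.25. At over 5000 nt, with 59 pairs, r was 0.16, 0.27 and -0.13, and for 200 pairs in overlapping intervals it was 0.25, 0.24 and 0.23. These r describe pairs that share their libraries and the same CK samples, and the pairs are not independent.

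**Figure D4:**
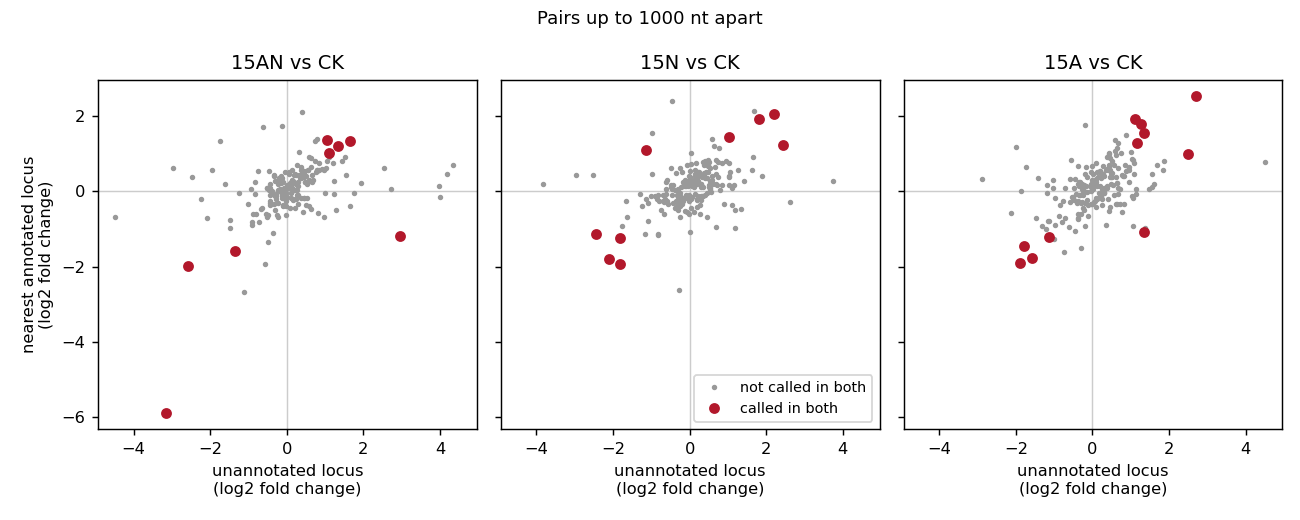
Log2 fold change over CK of each selected locus (horizontal axis) against that of its nearest annotated gene (vertical axis), for 15AN, 15N and 15A in separate panels, over the 201 pairs up to 1000 nt apart, with 1 point per pair and pairs called in both shown large and red. Pearson r is 0.38 in 15AN, 0.40 in 15N and 0.48 in 15A.

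A close match was found between XLOC_047434, 629 nt on the minus strand of scaffold1609 at 134246 to 134874, and XLOC_047433, a gene of uncharacterized product 76 nt away on the same strand. XLOC_047434 read 91.8, 89.3 and 93.5 FPKM in 15AN, 166, 164 and 170.0 in 15N, 192, 275 and 262 in 15A, and 42.6, 31.5 and 33.9 in CK. XLOC_047433 read 48.8, 47.5 and 49.4 FPKM in 15AN, 92.5, 87.3 and 86.3 in 15N, 99.0, 136 and 143 in 15A, and 21.4, 19.8 and 20.4 in CK. Both had the same order of groups, 15A above 15N above 15AN above CK, with no overlap. In 15A over CK their log2 fold changes were 2.72 ± 0.14 (adjusted p = 2.2e-07) and 2.54 ± 0.12 (1.1e-07).

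XLOC_082585, 335 nt on the minus strand of scaffold25530, lay 804 nt from XLOC_082584, described as MCM6, a subunit of the helicase that opens DNA for replication. The locus read 114, 131 and 132 FPKM in 15AN, 41.5, 18.4 and 30.2 in 15N, 48.7, 15.2 and 7.43 in 15A, and 68.8, 65.2 and 58.4 in CK. The gene read 84.0, 61.1 and 79.3 FPKM in 15AN, 43.9, 44.3 and 40.6 in 15N, 27.9, 12.3 and 15.6 in 15A, and 47.5, 46.0 and 55.1 in CK. Both were highest under the combined treatment, and the log2 fold changes of 15AN over 15A were 2.74 ± 0.52 (adjusted p = 2.6e-03) for the locus and 2.02 ± 0.24 (1.5e-04) for the gene.

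XLOC_047726, on scaffold16171 and 271 nt from XLOC_047725, a gene described as PH-interacting protein-like, was listed at 0 in all 15AN libraries and read 3.41, 1.66 and 5.11 FPKM in 15N, 1.83, 3.43 and 3.35 in 15A, and 3.73, 14.1 and 8.78 in CK. The gene was also nearly absent from 15AN, at 0.432, 0.0915 and 0.209 FPKM, and read 49.8, 85.3 and 46.2 in 15N, 10.1, 48.4 and 87.7 in 15A, and 73.4, 49.0 and 106 in CK. The gene's adjusted p of 15AN over CK was 4.5e-05, and the locus was selected through CK alone. XLOC_003669, 359 nt on C4851571, paired with XLOC_003668, a gene of uncharacterized product 90 nt away. It read 15.3, 5.95 and 15.6 FPKM in 15AN, 0 in all 15N libraries, 0.796, 4.48 and 6.57 in 15A, and 3.79, 3.34 and 6.55 in CK, and the gene also was lowest in 15N (1.19, 1.27 and 0.746 FPKM) and highest in 15AN (6.67, 6.92 and 6.15).

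A few further pairs were chosen after their values were seen, because the gene has a known role. XLOC_010094, 1279 nt on the plus strand of C4931931, lay 826 nt from XLOC_010095, described as allantoate deiminase, an enzyme that releases ammonium from purine breakdown products. It read 166, 169 and 139 FPKM in 15AN, 235, 246 and 262 in 15N, 306, 329 and 290.3 in 15A, and 116, 117 and 129 in CK, and the gene 74.4, 81.9 and 72.9 FPKM in 15AN, 138, 134 and 128 in 15N, 172, 132 and 130 in 15A, and 45.2, 49.2 and 49.6 in CK. Both lay above all CK libraries in every treated library, and in 15A the log2 fold changes were 1.35 ± 0.09 (adjusted p = 1.4e-06) for the locus and 1.56 ± 0.10 (1.3e-06) for the gene. The 15A value of XLOC_010094 was no longer called with equal totals (0.72) or quantile scaling (0.93).

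XLOC_041806, 7339 nt on scaffold148, and its neighbour XLOC_041807, described as adenosylhomocysteinase, an enzyme of the methylation cycle, did not keep step in 15AN. The locus read 1.02, 1.10 and 0.191 FPKM in 15AN, 8.98, 7.76 and 8.05 in 15N, 4.96, 4.93 and 4.31 in 15A, and 1.45, 1.27 and 2.34 in CK. The gene read 69.9, 63.3 and 88.9 FPKM in 15AN, 84.5, 92.1 and 77.7 in 15N, 79.9, 85.2 and 86.5 in 15A, and 22.2, 35.5 and 12.4 in CK. The gene was thus high in all treatments, whereas the locus was highest in 15N, the group through which it was selected, and lay in 15AN below CK. Its 15A over CK value, 1.11 ± 0.23 (adjusted p = 2.2e-03), lost its call with equal totals (0.66) and with a pseudocount of 5 (0.54). Opposite directions were seen for XLOC_102722 and XLOC_102721, described as the probable methyltransferase PMT7 and 374 nt away. XLOC_102722 read 7.29, 5.69 and 7.54 FPKM in 15AN and 0 in all CK libraries, and XLOC_102721 read 2.68, 2.095 and 1.78 FPKM in 15AN and 6.21, 6.54 and 5.86 in CK, each passing 5 FPKM in the group where it is high and in no other.

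Set beside the other loci at 5 FPKM or more, the selected ones lay between the gene models with a hit and the short loci without one. Called in 15AN, 15N and 15A over CK were 17.4, 19.3 and 20.8% of the 1350 loci, 10.4, 12.9 and 12.6% of 17324 annotated genes with a hit, 18.4, 19.3 and 18.9% of 1520 annotated genes without one, 13.4, 14.7 and 15.0% of 1138 unannotated loci of 300 nt or more with a hit, and 22.6, 23.5 and 25.0% of 1033 shorter loci without one. Replicates more than 10-fold apart in at least 1 group were found for 4.30%, 0.612%, 7.30%, 1.76% and 19.7% of these classes, in the same order. A whole group at 0 was found for 5.93%, 0.433%, 4.74%, 2.99% and 14.2%. These percentages are descriptions, as the classes differ in length and level.

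The same shares were taken by level. Under 10 FPKM, 22.3% of 793 selected loci were called in 15A over CK, against 15.6% of 6007 annotated genes with a hit and 19.6% of 632 without one. Between 10 and 100 FPKM the shares were 18.2% of 501 selected loci, 8.96% of 9635 genes with a hit and 16.8% of 695 without. At 100 FPKM or more they were 23.2% of 56, 22.3% of 1682 and 24.4% of 193. In 15N over 15A the shares of the same classes were 13.1, 4.68 and 10.4% under 10 FPKM. They were 6.59, 2.64 and 4.6% between 10 and 100 FPKM. At 100 FPKM or more, with only 56 selected loci, they were 7.14, 2.32 and 3.63%.

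**Figure D5:**
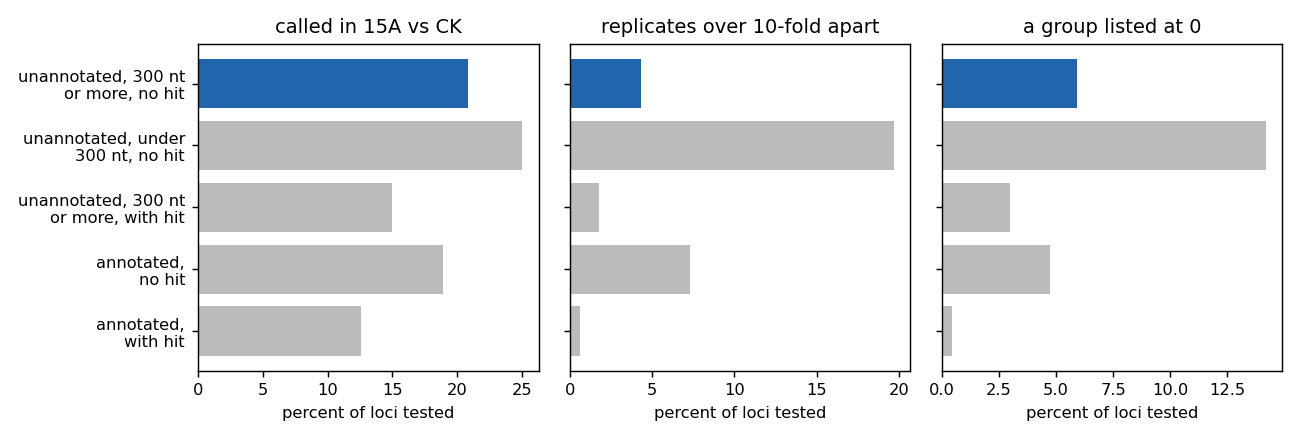
Percentage of loci (horizontal axis, percent) called in 15A over CK, with replicates more than 10-fold apart in at least 1 group, and with a whole group listed at 0, for each class of loci at 5 FPKM or more. The 1350 selected loci are at 20.8, 4.30 and 5.93%, against 12.6, 0.612 and 0.433% of annotated genes with a hit.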

How the data were processed

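Libraries of root RNA depleted of ribosomal RNA were sequenced. The authors aligned the reads with TopHat2 2.0.13 to the published *P. notoginseng* genome, assembled transcripts with Cufflinks 2.2.1, normalized with Cuffnorm 2.2.1 and deposited FPKM per locus, with locus intervals and database hits. FPKM values are not counts, and the paper's text gives only an approximate number of reads per library, so no counting error can be given.

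Here log2(FPKM + 1) was fitted for the 22592 loci that reached 5 FPKM in the mean of 1 or more groups, with limma 3.58.1 (R 4.3.3), with 1 linear model of all 4 groups and a trend in the prior variance. P-values were two-sided and adjusted by the Benjamini-Hochberg method over all loci, and a call required a log2 fold change of more than 1 in size with an adjusted p below 0.05. Fold changes on this scale understate the change of low loci. Tables were handled with Python 3.11.15 and pandas 2.3.3, and figures drawn with matplotlib 3.10.9. The test was tried on simulated data before use, with normal spread and changes placed only in selected loci of higher level in CK. It does not show how well changes are found in low loci or in groups at 0.

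The selected loci and lists were chosen with earlier results of these data known. Named loci were taken from the largest called changes without overlap between groups, the highest levels, values in a single library, the longest strand-resolved loci, the largest runs and the called pairs with a gene within 1000 nt. Intervals are given 1-based in the authors' assembly. Alternatives were pseudocounts of 0.1 and 5, a filter over all 12 libraries, no filter, equal totals, median-of-ratios and quantile scaling, a fit of the 2 groups compared, a replicate block and leaving out each library. No genome sequence was used here.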

Additional observations from a re-analysis of the deposited data

Results flagged for a closer look

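The effect of nitrate with ammonium (15AN over 15A) differed from its effect without ammonium (15N over CK), by the interaction term in limma, in the positive direction for 181 of the selected loci and in the negative direction for 212. The adjusted p of the interaction was 5.2e-13 for XLOC_107455, 3.9e-09 for XLOC_076477, 3.0e-03 for XLOC_025300 and 0.045 for XLOC_049797, the 4 largest positive values. For the 4 largest negative ones it was 4.1e-08 for XLOC_114263, 1.4e-05 for XLOC_106118, 2.9e-04 for XLOC_028084 and 3.1e-07 for XLOC_042717. XLOC_114263 and XLOC_042717 met the 5 FPKM minimum only through 1 group, in 15A and in 15N, so their p carries no weight. XLOC_107455, XLOC_076477 and XLOC_025300 met it only through 15AN and CK, the groups that the interaction adds. XLOC_106118 met it only through 15N and 15A, the groups it subtracts. The p of these loci carries no weight either. Of these 8 loci, XLOC_106118 and XLOC_049797 had no group listed at 0, and XLOC_049797 lost its call in 9 of the 12 fits that left out 1 library. Groups of 3 libraries are too small to test single libraries for standing apart.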

How the results depend on the processing

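Counts below are higher then lower. Over all 12 libraries, a mean of 5 FPKM gave 56 lower in 15A over CK, 103 and 58 in 15N over CK, 93 and 44 in 15AN over CK, 37 and 31 in 15N over 15A, 61 and 58 in 15AN over 15A, 40 and 45 in 15AN over 15N, and 101 positive interactions, fewer loci being tested. A pseudocount of 5 gave 78 and 47, 79 and 44, 77 and 49, 39 and 36, 53 and 47, and 48 and 45 in the same order, and 106 positive interactions, as it shrinks low values. Equal totals gave 72 and 281 in 15A over CK, 78 and 232 in 15N over CK, 131 lower in 15AN over CK, 192 higher in 15AN over 15A, and 445 and 107 for the interaction. The counts of all loci under equal totals are given with each comparison above. The other settings moved no count by over 1.5 times.

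Leaving out 1 library at a time gave 152 to 165 higher and 101 to 125 lower in 15A over CK, 142 to 162 and 93 to 109 in 15N over CK, 134 to 154 and 78 to 96 in 15AN over CK, 63 to 89 and 60 to 81 in 15N over 15A, 95 to 121 and 100 to 116 in 15AN over 15A, 77 to 89 and 78 to 84 in 15AN over 15N, and 161 to 187 and 200 to 231 for the interaction. Without the first 15A library, 162 loci were higher and 118 lower in 15A over CK, of which 139 and 97 were shared with the calls from all libraries.

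Replicate numbers did not pair the samples, since the deviations of same-numbered libraries had a mean correlation of -0.0019 (-0.0998 to 0.0505) over 18 pairs. With a replicate block the counts were 160 and 117 in 15A over CK, 154 and 107 in 15N over CK, 144 and 88 in 15AN over CK, 72 and 63 in 15N over 15A, 109 and 101 in 15AN over 15A, 84 and 81 in 15AN over 15N, and 176 and 215 for the interaction.

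Of 305 called values of the loci considered for naming, 197 kept their call in every alternative that could be fitted, none changed direction, and 350 of 6255 recomputed values lost the call, most often with a pseudocount of 5 (61), with only the 2 groups compared (31) and with equal totals (27). The deposited FPKM hold no depth, so the precision of low values, and of values listed at 0, cannot be stated.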
